A study of Mus musculus with 4 samples.

Results

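Venous-leaning coronary endothelium, in the sense used here, is the set of non-cycling coronary vascular endothelial cells (ECs) of the mouse embryonic ventricle that carried UMIs (unique molecular identifiers, counted RNA molecules) of *Nr2f2* or *Dab2*. The members were chosen by their own counts. Each barcode had 1000 to 7000 detected genes and at most 10% mitochondrially encoded UMIs, *Tnnt2*, *Actc1*, *Tnnc1* and *Ttn* together below 0.5% of UMIs, and at least 4 UMIs of *Pecam1*, *Cdh5*, *Emcn* and *Egfl7*. *Fabp4* made up at least 0.1% of UMIs, *Top2a* and *Mki67* gave at most 1 UMI, *Gja4* and *Gja5* gave at most 1 UMI, and *Nr2f2* and *Dab2* gave at least 2 UMIs. The rule took 168 of 45551 barcodes.

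Coronary veins, capillaries and arteries form in the ventricular wall from shared progenitors, among them the sinus venosus and the endocardium. *Nr2f2* encodes the orphan nuclear receptor COUP-TFII, which maintains venous identity and restrains Notch signalling. Venous ECs also carry the receptors EphB4 and apelin receptor, while arterial ECs carry ephrin-B2, Dll4 and the connexins encoded by *Gja4* and *Gja5*.

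The study profiled cells of E14.5 C57BL/6 ventricles with 10x Genomics 3′ libraries to ask how ETS1 in the endothelium acts on the myocardium. There were 2 control libraries (Tie2Cre with Ets1 fl/+) and 2 *Ets1* eKO libraries (Tie2Cre with Ets1 fl/fl), and each was a pool of ventricles from 3 embryos. The controls thus also carried Tie2Cre and 1 floxed *Ets1* allele. Tie2Cre acts in endothelium, endocardium and part of the blood lineage, so that deletion was not limited to coronary ECs. The labels put all 4 libraries in batch 1.

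Values of the 4 libraries are given in the order control 1, control 2, eKO 1 and eKO 2, numbered as the replicates of each group. The libraries held 12641, 7949, 10010 and 14951 barcodes and 39, 21, 41 and 67 venous-leaning cells. The summed UMIs of these cells were 437826, 205772, 397577 and 477249. Their median depth per cell was 9061, 9675, 8898 and 6581 UMIs, lowest in eKO 2. Any 2 libraries shared between 19 and 47 barcode sequences, and 0 of the shared barcodes were members. Levels are UMIs per 1e6 UMIs of the summed cells (CPM) throughout.

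The genes used by the rule are given as a description, without a test. *Nr2f2* stood at 258, 233, 206 and 318 CPM and *Dab2*, which encodes an endocytic adaptor, at 116, 141, 196 and 119 CPM. *Fabp4*, which encodes a fatty acid binding protein of coronary microvessels, stood at 5283, 4588, 5440 and 5234 CPM. The groups overlapped for each of these 3 genes. Of the members, 60 carried *Nr2f2* alone, 25 *Dab2* alone and 83 both. Of all members, 74 had exactly 2 UMIs of *Nr2f2* and *Dab2* together, 94 had 3 or more, and 145 cells just outside had 1 UMI. The 9 venous markers that the rule did not use summed to 658 CPM just inside the threshold and 586 CPM just outside it, against 511 CPM in the 274 cells with 0 UMIs and 767 CPM in the members with 3 or more.

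**Figure D1:**
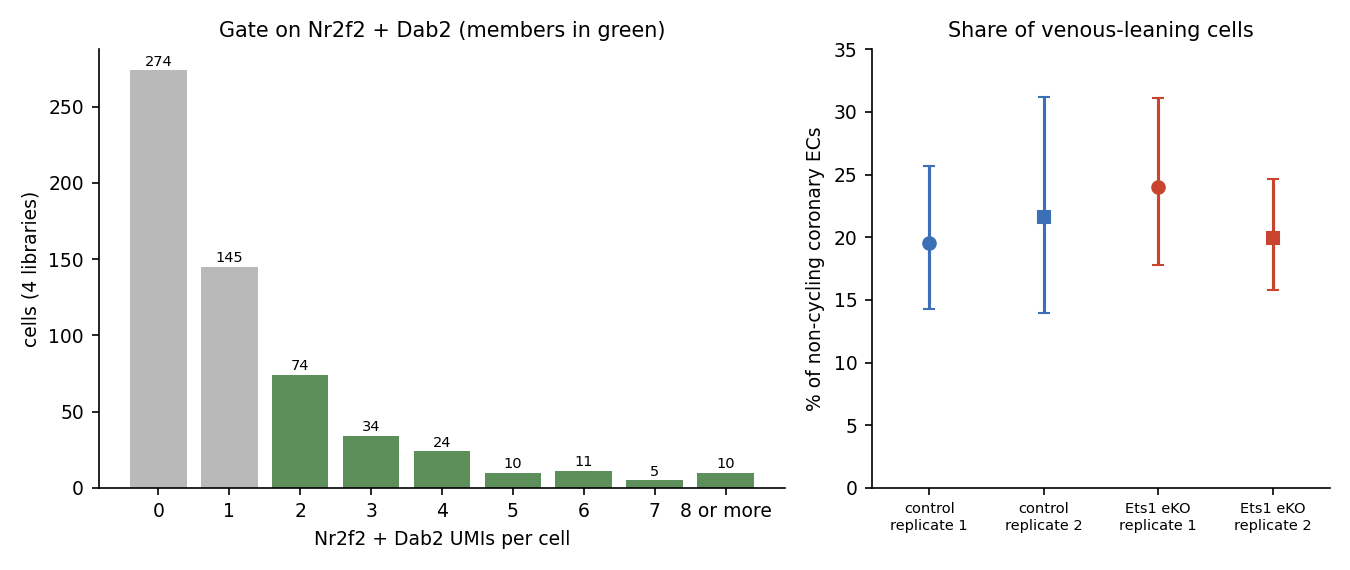
Left, number of non-cycling, non-arterial coronary ECs by their UMIs of *Nr2f2* and *Dab2* together, with the 168 members in green; right, venous-leaning cells in percent of non-cycling coronary ECs in each library, with exact 95% binomial intervals. The counts fall without a gap across the threshold of 2 UMIs, and the 4 shares lie between 19.5% and 24.0%.

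Venous markers outside the rule were compared with capillary-type cells (the same rule with at most 1 UMI of *Nr2f2* and *Dab2*, 419 cells) and with arterial cells (the same rule with at least 2 UMIs of *Gja4* and *Gja5*, 217 cells, of which 17 also had at least 2 UMIs of *Nr2f2* and *Dab2*). These comparisons are descriptions, since the gates divide the same cells. *Aplnr*, the apelin receptor gene, stood at 146, 190, 88.0 and 71.2 CPM in venous-leaning cells, at 93.2, 79.3, 81.6 and 57.2 CPM in capillary-type cells and at 5.06, 8.04, 2.18 and 10.8 CPM in arterial cells. *Aplnr*, *Ephb4* and *Tek* were higher than in capillary-type cells in every library, which is 3 of the 9 markers, and *Flt4* was lower. *Nrp2* was higher than in arterial cells in every library but overlapped with capillary-type cells. The label did not hold for every marker. *Vwf* was lower than in arterial cells in every library, *Ackr1* was at 0 in all 4 libraries, and *Selp* reached at most 10.5 CPM. Summed over the 9 genes, the list gave 770, 739, 742 and 666 CPM against 617, 593, 508 and 488 CPM in capillary-type and 355, 378, 349 and 300 CPM in arterial cells. The list did not set the members apart from the 5555 other endothelial cells with *Fabp4* below the threshold. Over all libraries together it gave 726 CPM in members and 755 CPM in those cells, where *Tek* (548 against 284 CPM) and *Ephb4* (72.6 against 53.3 CPM) were higher and *Aplnr* (4.09 against 113 CPM) was lower.

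Arterial markers were mostly low relative to the arterial gate. Of 15 arterial markers outside the rule, 14 were lower than in arterial cells in every library, among them *Efnb2* at 194, 160, 189 and 119 CPM against 460, 567, 336 and 275 CPM. *Cxcr4*, a chemokine receptor gene of arterial ECs, stood at 2.28, 0, 17.6 and 8.38 CPM against 106, 101, 116 and 119 CPM. Against capillary-type cells, 6 of 15 arterial markers were lower in every library (*Cxcr4*, *Dll4*, *Efnb2*, *Mecom*, *Sema3g* and *Unc5b*) and *Bmx* was higher. Of 11 capillary markers, 6 were lower than in capillary-type cells in every library, *Rgcc*, *Cd36* and *Kdr* among them, and 0 were higher. Against arterial cells, 3 of the 11 (*Lpl*, *Meox2*, *Rgcc*) were higher in every library and 4 were lower. Of 17 SoxF and other endothelial factor genes, 5 were higher and 1 (*Tcf15*) lower than in capillary-type cells in every library, and 7 were higher and 2 (*Sox17*, *Sox7*) lower than in arterial cells. *Klf2*, which responds to flow, stood at 443, 418, 257 and 241 CPM against 210, 130, 156 and 156 CPM in capillary-type cells. *Klf4*, *Foxo1*, *Foxp1* and *Foxc1*, the others of the 5, were likewise higher than in both other gates in every library.

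**Figure D2:**
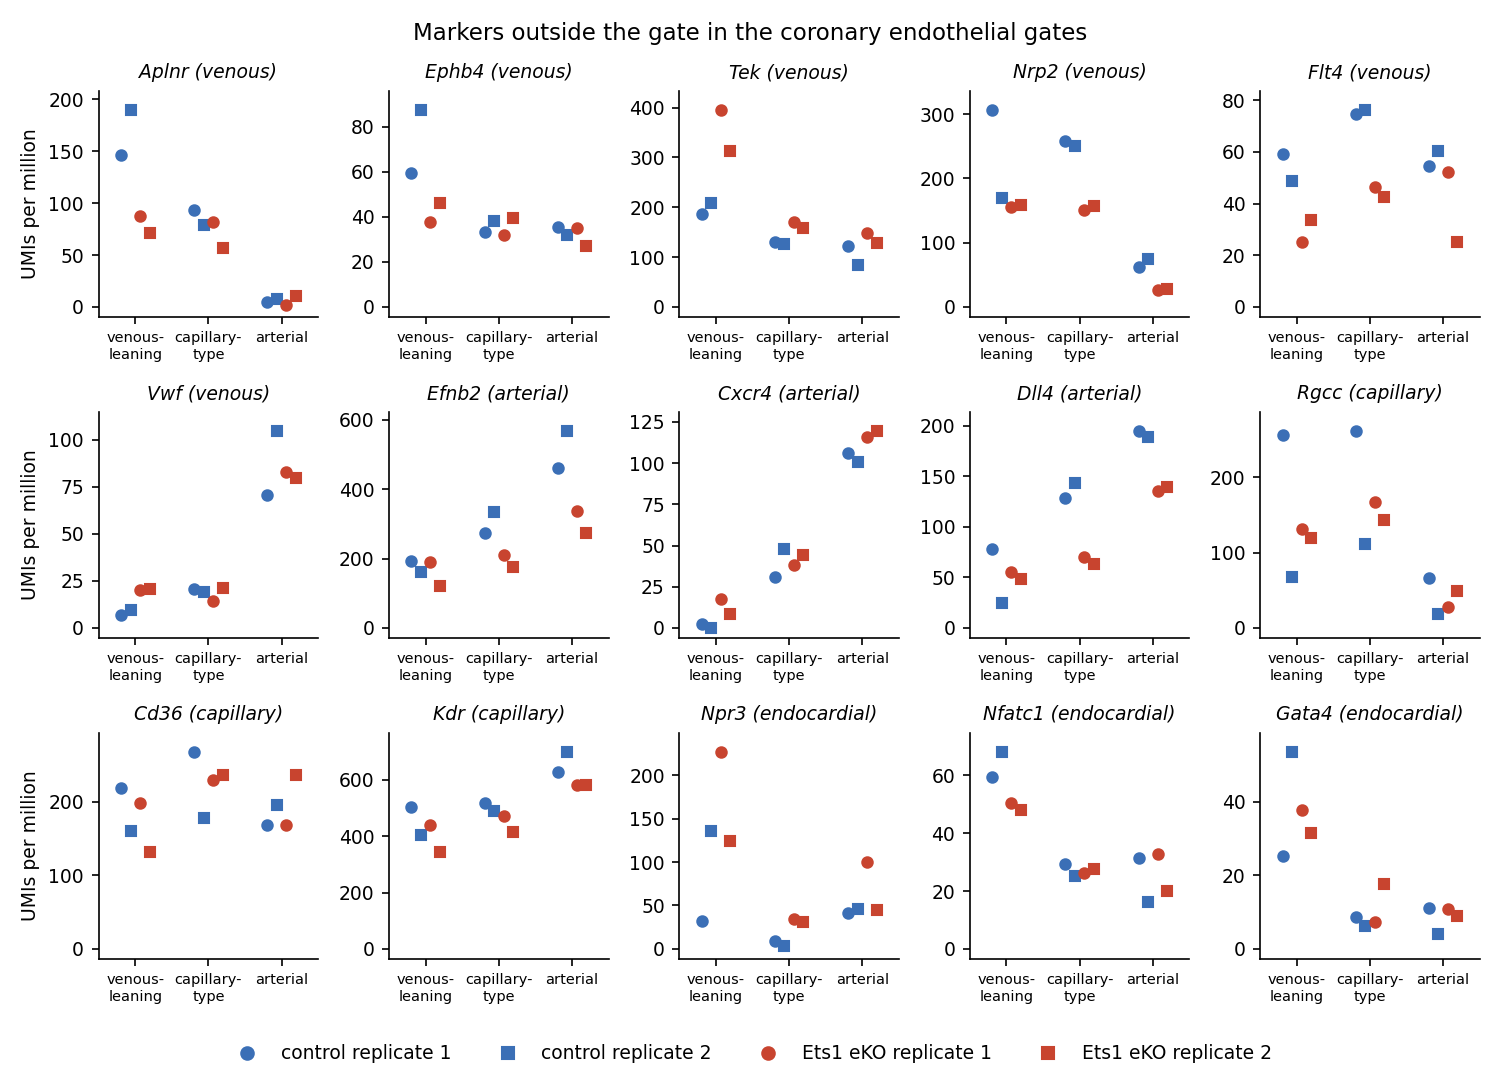
Level of 15 markers outside the rule (CPM) in the venous-leaning, capillary-type and arterial gates, with 1 point per library, controls in blue and *Ets1* eKO in red. *Aplnr*, *Ephb4* and *Tek* are highest in the venous-leaning gate in every library, *Cxcr4* lies at or below 17.6 there, and the endocardial markers *Nfatc1* and *Gata4* are also highest there.

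Endocardial markers were also higher in the venous-leaning gate. The 7 markers summed to 254, 573, 611 and 497 CPM, all 7 were detected in every library, and *Cdh11* was the most abundant in the mean over libraries. The same sum was 125, 60.3, 159 and 176 CPM in capillary-type cells, and 5 of the 7 (*Cdh11*, *Gata4*, *Nfatc1*, *Npr3*, *Nrg1*) were higher than there in every library. These markers went with the *Fabp4* threshold. The 38 members with *Fabp4* between 0.1% and 0.2% of UMIs gave 1312 CPM over the 7 markers, and 35 cells just outside, between 0.05% and 0.1%, gave 1053 CPM. The 130 members with *Fabp4* at 0.2% or more gave 266 CPM, with *Npr3* at 58.7 CPM against 408 CPM in the others. *Tek* and *Ephb4* followed the same division, at 411 and 95.9 CPM in the 38 cells and at 254 and 43.2 CPM in the 130, whereas *Aplnr* did not, at 58.2 and 126 CPM. Lymphatic markers were low: *Pdpn*, *Reln* and *Ccl21a* were at 0 in every library and the list of 6 summed to at most 55.3 CPM. The list gave 9.14, 43.7, 55.3 and 54.5 CPM. Its mean over libraries was 40.7 CPM, against 11.8 CPM in capillary-type and 8.49 CPM in arterial cells. It was higher than in arterial cells in every library, but lower than in capillary-type cells in control 1. *Prox1* was higher than in both other gates in every library.

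Markers of other lineages were measured in the members as summed lists. The 8 fibroblast markers gave 45.7, 92.3, 186 and 404 CPM, with 5, 4, 6 and 7 of the 8 detected, *Col3a1* the most abundant over the libraries and *Tcf21* at 0 in every library. The list was thus higher in both *Ets1* eKO libraries. The 7 mural markers gave 43.4, 24.3, 60.4 and 58.7 CPM, with *Rgs5*, *Cspg4* and *Myh11* at 0, and the 6 epicardial markers gave 89.1, 97.2, 108 and 101 CPM, nearly all from *Wt1*, with *Upk3b*, *Upk1b*, *Msln* and *Tbx18* at 0. Leukocyte markers gave 1 count in control 1, 0 in control 2, 138 in eKO 1 and 0 in eKO 2. Erythroid markers gave 162, 72.9, 148 and 174 CPM, with *Hbb-bs* the most abundant over the libraries, and cardiomyocyte markers outside the rule gave 466, 316, 460 and 518 CPM, led by *Tpm1*.

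Sex differed between the pools as well. Of the members, 0, 11, 16 and 59 had UMIs of *Xist* without a Y-linked UMI, and 35, 9, 14 and 0 had Y-linked UMIs without *Xist*. Control replicate 1 thus held cells of the Y-linked class alone and eKO 2 held cells of the *Xist* class alone, while the other libraries held both. In eKO 1, 5 cells had UMIs of both kinds. The part of sex and of genotype in a difference cannot be told apart from all 4 libraries, and values within the sex-linked classes of control 2 and eKO 1 are given for the called genes.

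The venous-leaning share of non-cycling coronary ECs was 19.5% (39 of 200 cells, exact 95% binomial interval 14.2% to 25.7%) in control 1 and 21.6% (21 of 97, 13.9% to 31.2%) in control 2. In eKO 1 it was 24.0% (41 of 171, 17.8% to 31.1%) and in eKO 2 it was 19.9% (67 of 336, 15.8% to 24.6%). eKO 1 was highest and control 1 lowest, and the groups overlapped. The means were 20.6% ± 1.52 (SD, n = 2) and 22.0% ± 2.85 (SD, n = 2), a difference of 1.38 percentage points with an exact two-sided permutation p of 0.667, where 0.33 is the smallest that 2 against 2 libraries can give. Without eKO 1 the difference was -0.634 points, without eKO 2 it was 3.40, without control 1 it was 0.309 and without control 2 it was 2.46. A gate on UMIs depends on depth. After thinning to 4000 UMIs the shares were 13.1%, 7.63%, 11.9% and 15.1%, a difference of 3.16 points, and the groups overlapped. Non-cycling cells under 4000 UMIs were left out there, 11 of 200, 5 of 97, 16 of 171 and 107 of 336, most of them in eKO 2. Cells that passed the limit on *Top2a* and *Mki67* after thinning entered, so the shares are of 229, 118, 176 and 278 cells, not the same cells as before.

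The order of the groups depended on the setting. With cells carrying 3 or more UMIs of fibroblast, mural, epicardial or leukocyte markers left out, the shares of non-cycling coronary ECs were 25.0%, 24.6%, 22.0% and 18.5%, a difference of -4.54 points. In that setting both controls lay above both *Ets1* eKO libraries. The limit of 3 UMIs was not scaled to depth, which was lowest in eKO 2, and *Wt1*, present in members of every library, counted toward it. The part of depth in this order was not tested. It kept 28 of 39, 15 of 21, 22 of 41 and 47 of 67 members and 112 of 200, 61 of 97, 100 of 171 and 254 of 336 non-cycling cells, and a cell left out is not shown to be of another lineage. The reverse held in 2 others: as a share of all coronary ECs, cycling cells included, the values were 9.73%, 9.91%, 12.3% and 11.2% (a difference of 1.96 points), and after thinning to 2000 UMIs they were 3.85%, 4.72%, 4.86% and 5.61% (0.954 points). The shares after thinning rest on 8 of 208, 5 of 106, 7 of 144 and 17 of 303 cells. In both settings the exact 95% binomial intervals of the 4 libraries overlapped.

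*Ets1*, the targeted gene, stood at 455, 316, 236 and 109 CPM in venous-leaning cells. Both *Ets1* eKO libraries lay below both controls. The log2 fold change was -1.13 (SE 0.32), and edgeR's quasi-likelihood test, after Benjamini-Hochberg adjustment over the 6277 genes tested, gave an adjusted p of 0.216, so *Ets1* was not called. *Ets1* UMIs were present in 37 of 39, 19 of 21, 31 of 41 and 33 of 67 cells. Over the alternative settings the log2 fold change ran from -1.79 to -0.67, and *Ets1* was called in 4 of 17. Both ends of this range, -1.79 and -0.67, came from leaving out 1 library. Without eKO 1, where the level was the higher of the eKO pair, *Ets1* was called at -1.79. In capillary-type cells *Ets1* stood at 363, 352, 175 and 135 CPM and in arterial cells at 264, 251, 120 and 112 CPM, and the test of the difference in effect gave an adjusted p of 1.00 against capillary-type and 0.965 against arterial cells. The files do not give the floxed exons, so the remaining 3′ counts do not show whether the deleted stretch is part of these transcripts.

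Between *Ets1* eKO and control, 15 genes rose in venous-leaning cells, which is 0.239% of the 6277 genes that passed the filter on low counts of 32285, and 1 fell, which is 0.0159%. These p-values rest on the spread between libraries, each a pool of 3 embryos. With 2 libraries per group, edgeR estimates the spread of a gene largely from a trend over all genes tested. Genes that rose included the metallothionein gene *Mt1*, the lncRNA *Gm3331* beside *Ets1*, the galectin gene *Lgals1*, the calcification inhibitor gene *Mgp* and the imprinted genes *Dlk1* and *Meg3*. The gene that fell was *Ephb1*, an ephrin receptor gene. At an unadjusted p under 0.05 there were 351 genes, and DESeq2 called 6 genes (*Mt1*, *Gm3331*, *Mgp*, *Chrm3*, *Ptn* and *Lgals1*), all among the 16. The count depended on the libraries. It was 4 without control 1, 36 without control 2, 49 without eKO 1 and 54 without eKO 2, and it was 2 with cells carrying other lineages' markers left out. *Mt1* and *Gm3331* were called in all 17 alternative settings, and no other gene was.

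**Figure D3:**
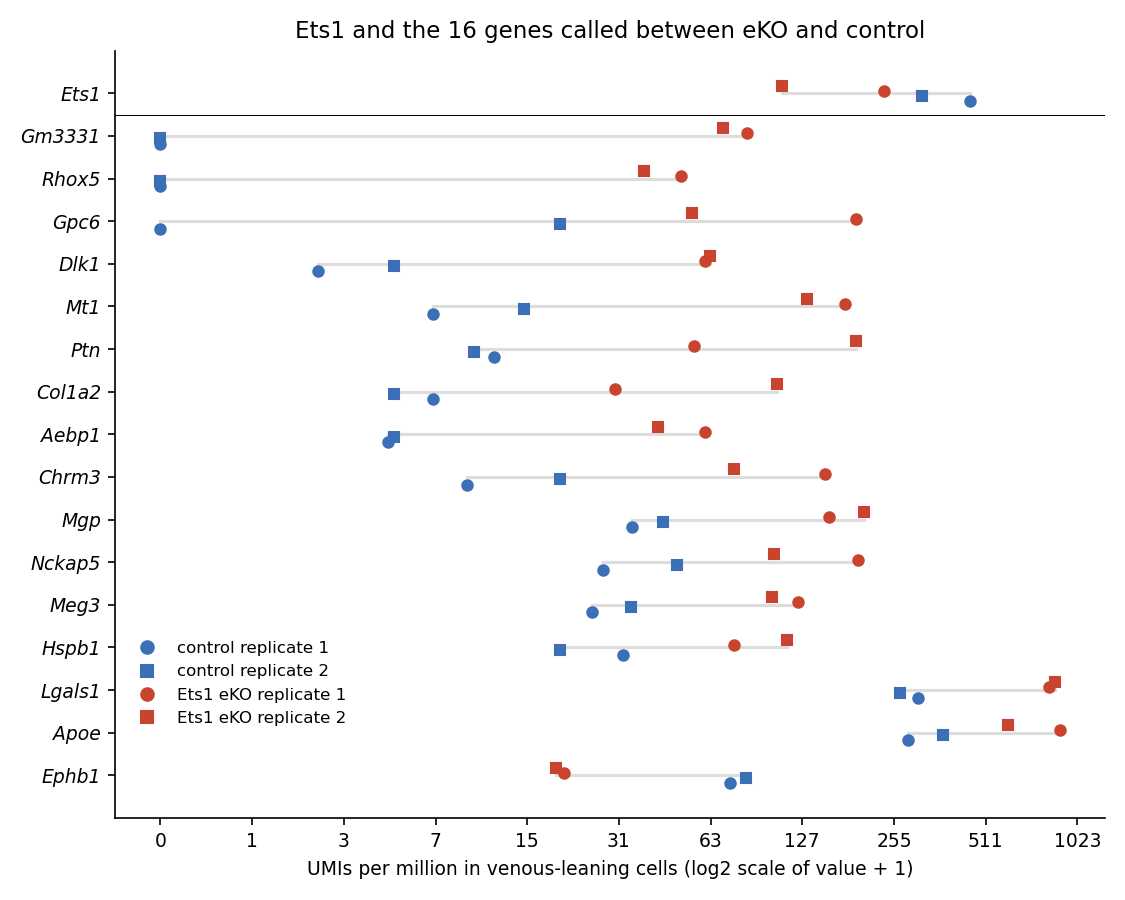
Level of *Ets1* and of the 16 called genes in venous-leaning cells (CPM on a log2 scale of the value plus 1), with 1 point per library, controls in blue and *Ets1* eKO in red. The groups do not overlap for any of the 17 genes, and *Gm3331* and *Rhox5* are at 0 in both controls.

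*Mt1*, which encodes a zinc and copper binding metallothionein, stood at 6.85, 14.6, 176 and 132 CPM. Both *Ets1* eKO libraries were far above both controls. The log2 fold change was 4.04 (SE 0.48, adjusted p = 1.97e-05). The counts came from 3, 2, 30 and 34 cells, and the largest count in 1 cell was 8. Within eKO 1, *Mt1* stood at 192 CPM in cells of the *Xist* class and 191 CPM in cells of the Y-linked class. In control 2 these were 0 and 29.1 CPM. *Mt1* was also higher in both *Ets1* eKO libraries in capillary-type cells, at 7.36, 6.35, 256 and 187 CPM, and in arterial cells, at 3.04, 2.01, 428 and 242 CPM. The difference in effect had an adjusted p of 1.00 against capillary-type and 0.383 against arterial cells.

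Metallothionein genes are known to respond to zinc through metal response elements, so the *Mt1* promoter (RefSeq, GRCm38.p6, chr8:94178839-94179138, plus strand) was searched for TGCGCNC and TGCACNC on both strands. Its 3 matches are in capitals.
Mt1: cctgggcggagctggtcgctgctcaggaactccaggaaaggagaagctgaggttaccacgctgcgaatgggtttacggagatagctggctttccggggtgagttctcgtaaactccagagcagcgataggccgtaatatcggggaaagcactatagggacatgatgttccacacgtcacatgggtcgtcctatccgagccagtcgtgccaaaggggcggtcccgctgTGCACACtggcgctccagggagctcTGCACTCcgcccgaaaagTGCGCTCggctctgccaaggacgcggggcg
Of all 32851 promoters of this table, 1.97% held at least 3 matches and 25.7% held at least 1. RefSeq promoters were found for 13 of the 16 called genes (not for *Gpc6*, *Lgals1* and *Mgp*), and 5 of their 19 promoters held a match, which is 26.3%.

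The ETS letters CCGGAAG were searched on both strands in the same promoters. They occurred in 1 of 19, that of *Rhox5*, against 8.86% of all promoters. The *Rhox5* promoter in RefSeq (chrX:37754358-37754657, plus strand) ends 50.2 kb before the annotated gene start, and the match, in capitals, is on the opposite strand.
Rhox5: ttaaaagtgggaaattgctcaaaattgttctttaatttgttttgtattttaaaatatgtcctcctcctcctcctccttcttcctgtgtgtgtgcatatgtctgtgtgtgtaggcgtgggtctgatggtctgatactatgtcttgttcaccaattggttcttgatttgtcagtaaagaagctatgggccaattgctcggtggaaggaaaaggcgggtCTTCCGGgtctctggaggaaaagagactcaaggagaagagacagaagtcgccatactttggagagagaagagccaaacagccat
A match is a description of letters in the window.

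*Gm3331* (ENSMUSG00000099148), annotated as a lincRNA at chr9:32813734-32834104 on the plus strand, starts 55.9 kb after the end of *Ets1* on the same strand in the GENCODE annotation. Its 3 RefSeq promoters start nearer, 25.1, 29.8 and 31.5 kb after the end of *Ets1*. It had 0 counts in both controls and 33 counts in each *Ets1* eKO library, which is 83.0 and 69.1 CPM. The counts came from 17 and 23 cells. Against a floor of 3 counts over both controls it was at least 16.2-fold higher (adjusted p = 3.48e-05). In eKO 1 it stood at 114 CPM in the *Xist* class and 79.7 CPM in the Y-linked class. *Gm3331* was also at 0 in the controls of the other gates, with 68.5 and 48.9 CPM in capillary-type and 39.3 and 28.9 CPM in arterial cells of *Ets1* eKO.

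*Rhox5*, an X-linked homeobox gene, had 0 counts in both controls and 50.3 and 37.7 CPM in *Ets1* eKO. It was at least 9.32-fold higher against the same floor (adjusted p = 0.00191), but from 5 and 6 cells only. In eKO 1, 13 of 20 counts lay in 1 cell, and in eKO 2, 8 of 18 did. In capillary-type cells it stood at 20.9, 0, 5.83 and 25.8 CPM, where the groups overlapped, and in arterial cells at 8.10, 42.2, 93.9 and 43.4 CPM, where both *Ets1* eKO libraries were above both controls. The call was lost without control 1, at a fitted log2 fold change of 7.0, and without eKO 1, at 6.86.

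The called genes *Mgp*, *Lgals1*, *Ptn*, *Col1a2*, *Gpc6* and *Aebp1* are described together, a grouping made after the calls were seen. *Mgp* stood at 34.3, 43.7, 156 and 203 CPM, with both *Ets1* eKO libraries above both controls (log2 fold change 2.30, SE 0.36, adjusted p = 0.000886). *Lgals1*, which encodes galectin-1, stood at 306, 267, 828 and 861 CPM, again without overlap (1.61, SE 0.26, adjusted p = 0.000886). It was found in 27 of 39 and 12 of 21 control cells and in 38 of 41 and 63 of 67 *Ets1* eKO cells. *Ptn*, which encodes the heparin-binding growth factor pleiotrophin, stood at 11.4, 9.72, 55.3 and 191 CPM (3.54, SE 0.57, adjusted p = 0.000886). The high value in eKO 2 rested on 1 cell with 57 of 91 counts. *Col1a2*, a fibrillar collagen gene, stood at 6.85, 4.86, 30.2 and 105 CPM (3.47, SE 0.66, adjusted p = 0.00830), with 31 of 50 counts of eKO 2 in 1 cell. The glypican gene *Gpc6* stood at 0, 19.4, 191 and 54.5 CPM (4.22, SE 0.72, adjusted p = 0.00178), with 32 of 76 counts of eKO 1 in 1 cell. *Aebp1*, which encodes a secreted collagen-associated protein, stood at 4.57, 4.86, 60.4 and 41.9 CPM (3.41, SE 0.66, adjusted p = 0.00877). Fibroblast markers, summed above, were higher in the same libraries, and with cells carrying other lineages' markers left out 0 of these 6 genes were called. *Col1a2* is itself among the markers used to leave out cells, so its loss there was set by the choice of cells. In that setting *Mgp* (1.56) and *Lgals1* (1.43) stayed positive, and *Ptn*, *Col1a2*, *Gpc6* and *Aebp1* did not pass the filter on low counts. With a *Fabp4* threshold of 0.2%, *Ptn*, *Col1a2* and *Gpc6* did not pass it either. Of these 6 genes, *Lgals1* and *Gpc6* were also called after thinning to 4000 UMIs.

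Each of these calls depended on a library. Without control 1 the call was lost for *Mgp* (log2 fold change 2.09), *Lgals1* (1.71), *Ptn* (3.69), *Col1a2* (3.79), *Gpc6* (2.66) and *Aebp1* (3.34). It was also lost for *Lgals1* without control 2 (1.52), for *Aebp1* without eKO 1 (3.13), and for *Ptn* (2.37) and *Col1a2* (2.28) without eKO 2. Directions did not turn.

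The imprinted genes *Dlk1* and *Meg3*, which lie in the same imprinted domain, rose. *Dlk1*, which encodes a non-canonical Notch ligand, stood at 2.28, 4.86, 60.4 and 62.9 CPM (log2 fold change 4.22, SE 0.67, adjusted p = 0.000886). Its counts came from 1, 1, 6 and 14 cells. The lncRNA *Meg3* stood at 25.1, 34.0, 123 and 101 CPM (2.02, SE 0.40, adjusted p = 0.00961). It rested on few cells, with 8 of 11, 7 of 7, 20 of 49 and 16 of 48 counts in 1 cell of each library. For each gene the controls were the lower pair, without overlap. With cells carrying other lineages' markers left out, *Meg3* was no longer called and its log2 fold change was -0.41, and *Dlk1* did not pass the filter on low counts. Without control 1 the calls were lost at 3.62 for *Dlk1* and 1.75 for *Meg3*. In capillary-type cells *Dlk1* stood at 1.23, 0, 11.7 and 28.6 CPM.

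*Chrm3*, a muscarinic acetylcholine receptor gene, stood at 9.14, 19.4, 151 and 75.4 CPM (log2 fold change 3.17, SE 0.51, adjusted p = 0.000886), from 1, 2, 13 and 10 cells. *Nckap5*, *Hspb1* and *Apoe* were called as well and, like *Lgals1* and *Meg3*, were chosen for mention after their values were seen. *Nckap5* stood at 27.4, 48.6, 194 and 103 CPM (2.11, SE 0.41, adjusted p = 0.00868). The small heat shock protein gene *Hspb1* stood at 32.0, 19.4, 75.5 and 113 CPM (1.83, SE 0.41, adjusted p = 0.0434), with 18 of 30 counts of eKO 1 and 23 of 54 counts of eKO 2 in 1 cell each. The apolipoprotein gene *Apoe* stood at 283, 369, 895 and 603 CPM (1.27, SE 0.28, adjusted p = 0.0324), with 165 of 356 counts of eKO 1 in 1 cell. All groups were without overlap. *Apoe* and *Hspb1* were no longer called once the cell with leukocyte markers was left out, an alternative chosen after seeing the data, and their log2 fold changes were 0.82 and 1.84 there. The lowest values over the alternatives were 0.08 for *Apoe*, with cells carrying other lineages' markers left out, and 0.68 for *Hspb1*, with a *Fabp4* threshold of 0.2%. Without control 1 the calls of *Chrm3* (2.56), *Nckap5* (1.64), *Hspb1* (2.32) and *Apoe* (1.07) were lost. Those of *Hspb1* (1.62) and *Apoe* (1.46) were lost without control 2, that of *Apoe* (0.96) without eKO 1, and that of *Hspb1* (1.5) without eKO 2.

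Several of these genes differed between the sex-linked classes. In eKO 1 the *Xist* class and the Y-linked class stood at 18.0 and 207 CPM for *Hspb1*, 47.9 and 287 CPM for *Chrm3*, and 1240 and 542 CPM for *Apoe*. Some of these differences rested on 1 cell each. In the *Xist* class 1 cell held 165 of the 207 *Apoe* counts. In the Y-linked class another cell held 18 of the 26 *Hspb1* counts. For the genes grouped with *Mgp* they stood at 95.8 and 199 CPM (*Mgp*), 5.99 and 79.7 CPM (*Ptn*), 5.99 and 47.8 CPM (*Col1a2*), 47.9 and 215 CPM (*Gpc6*), 29.9 and 104 CPM (*Aebp1*) and 802 and 861 CPM (*Lgals1*). The Y-linked class was thus the higher for most of them. *Dlk1* stood at 53.9 and 47.8 CPM, *Meg3* at 138 and 175 CPM, *Nckap5* at 234 and 167 CPM and *Rhox5* at 29.9 and 120 CPM. For *Rhox5*, 1 cell held 13 of the 15 counts of the Y-linked class.

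In control 2 the same classes stood at 407 and 107 CPM for *Lgals1*, 52.2 and 38.8 CPM for *Mgp*, 490 and 271 CPM for *Apoe*, 41.7 and 58.1 CPM for *Nckap5* and 73.0 and 0 CPM for *Meg3*. The remaining genes of this group (*Hspb1*, *Chrm3*, *Ptn*, *Col1a2*, *Gpc6*, *Aebp1*, *Dlk1*, *Rhox5*) stood at 29.1 CPM or less in both classes. For *Ptn* the *Xist* class of eKO 1 (5.99 CPM) lay below the Y-linked class of control 2 (19.4 CPM), and for *Col1a2* it lay below the *Xist* class of control 2 (10.4 CPM). For *Hspb1* the *Xist* class of eKO 1 also lay below the Y-linked class of control 2. These orders rest on 1 against 2 counts for *Ptn*, 1 against 1 for *Col1a2* and 3 against 3 for *Hspb1*. None of these exceeds the floor of 3 counts, so they do not order the classes. These classes hold between 9 and 16 cells each.

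*Ephb1*, which encodes a receptor for B-class ephrins, was the gene that fell. It stood at 73.1, 82.6, 20.1 and 18.9 CPM. Both controls lay above both *Ets1* eKO libraries, and the log2 fold change was -1.91 (SE 0.42, adjusted p = 0.0425). In the *Xist* and Y-linked classes it stood at 73.0 and 96.9 CPM in control 2 and at 12.0 and 23.9 CPM in eKO 1. In capillary-type cells it stood at 67.5, 63.5, 33.5 and 13.8 CPM and in arterial cells at 64.8, 64.4, 34.9 and 18.1 CPM. The call was lost without control 1 (-2.02), without eKO 2 (-1.85) and without the cell with leukocyte markers (-1.89), and it was kept in 7 of 17 alternative settings.

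The venous markers outside the rule differed by gene. Of the 5 tested among 9, edgeR's quasi-likelihood test called 0 and DESeq2 called 0, with 2 at an unadjusted p under 0.05. Of these 5, 4 were lower without overlap between the groups, where 20.4% of all genes tested were, and 1 was higher, where 13.1% were. The summed list given above overlapped between the groups. The list's median log2 fold change was -0.68, beside 0.01 over all genes tested. *Aplnr* was lower in both *Ets1* eKO libraries (log2 fold change -0.99, SE 0.32, adjusted p = 0.409). *Ephb4*, the ephrin-B2 receptor gene of veins, stood at 59.4, 87.5, 37.7 and 46.1 CPM (-0.68, SE 0.38, adjusted p = 0.958). *Flt4* stood at 59.4, 48.6, 25.2 and 33.5 CPM (-0.84) and *Nrp2* at 306, 170, 156 and 159 CPM (-0.58). *Tek*, which encodes the angiopoietin receptor Tie2, went the other way, at 187, 209, 395 and 312 CPM (0.90, SE 0.28, adjusted p = 0.409). For these 5 genes the test of the difference in effect between gates gave an adjusted p above 0.8 against both capillary-type and arterial cells.

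Of 10 arterial markers tested, 0 were called and 0 had an unadjusted p under 0.05, with a median of -0.12. *Notch1*, at 169, 170, 126 and 124 CPM, was lower without overlap and 0 were higher (20.4% and 13.1% of all genes tested were). Of 9 capillary markers tested, 0 were called and 0 had an unadjusted p under 0.05, with a median of -0.18, and 2 were higher and 1 lower without overlap. Of 5 endocardial markers tested, 0 were called and 2 had an unadjusted p under 0.05, with a median of 0.18, and 1 was higher and 1 lower without overlap. DESeq2 called 0 in each of these lists. *Npr3*, the natriuretic peptide clearance receptor gene, stood at 32.0, 136, 226 and 124 CPM (log2 fold change 1.32, adjusted p = 0.409), and control 2 lay within the *Ets1* eKO range. The lymphatic marker *Lyve1* stood at 0, 9.72, 37.7 and 27.2 CPM (adjusted p = 0.216). Of 3 fibroblast markers tested among 8, *Col1a2* was called higher (0.239% of all genes tested were). All 3 were higher without overlap (13.1% of all genes tested were). *Col1a2*, with 3 and 1 counts in the controls, passed the filter on low counts through the *Ets1* eKO libraries alone. Its direction was thus tied to its being tested, and the count of 3 does not describe the whole list.

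Regulators of endothelial identity were described by list. Of 10 ETS factor genes, all tested, 0 were called by either tool, 1 had an unadjusted p under 0.05, and 6 were lower without overlap (20.4% of all genes tested were), with a median of -0.27. The list includes *Ets1* itself, which is 1 of the 6 and the gene with the unadjusted p under 0.05. *Fli1* stood at 630, 632, 533 and 478 CPM and *Etv6* at 381, 335, 221 and 260 CPM, both lower in *Ets1* eKO, while *Ets2* overlapped at 270, 228, 216 and 230 CPM. Of 15 SoxF and other endothelial factor genes tested, 0 were called by either tool and 3 had an unadjusted p under 0.05, with a median of -0.32. Without overlap, 3 were higher and 6 lower (13.1% and 20.4% of all genes tested were), and the highest log2 fold change was 1.24. *Sox18* stood at 114, 72.9, 42.8 and 44.0 CPM (log2 fold change -1.10), and *Klf2* was lower in both *Ets1* eKO libraries (-0.74). Of 10 Notch pathway genes tested, *Dlk1* was called higher (0.239% of all genes tested were), and the median was 0.01, turning to -0.05 with total count scaling. *Dll4* overlapped at 77.7, 24.3, 55.3 and 48.2 CPM.

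Of 10 BMP and ALK1 pathway genes tested, 0 were called by either tool and 3 had an unadjusted p under 0.05, with a median of -0.08. The BMP target *Id1* stood at 244, 214, 146 and 107 CPM (log2 fold change -0.82), whereas *Id2* stood at 52.5, 43.7, 83.0 and 113 CPM (1.05). Both were without overlap and neither was called. Of 11 VEGF, angiopoietin and apelin genes tested, 0 were called by either tool and 2 had an unadjusted p under 0.05, with a median of -0.16. Without overlap, 2 were higher and 4 lower (13.1% and 20.4% of all genes tested were). *Vegfc*, a ligand of Flt4, stood at 95.9, 136, 72.9 and 60.8 CPM, lower in both *Ets1* eKO libraries, and *Kdr* overlapped at 502, 403, 440 and 344 CPM.

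**Figure D4:**
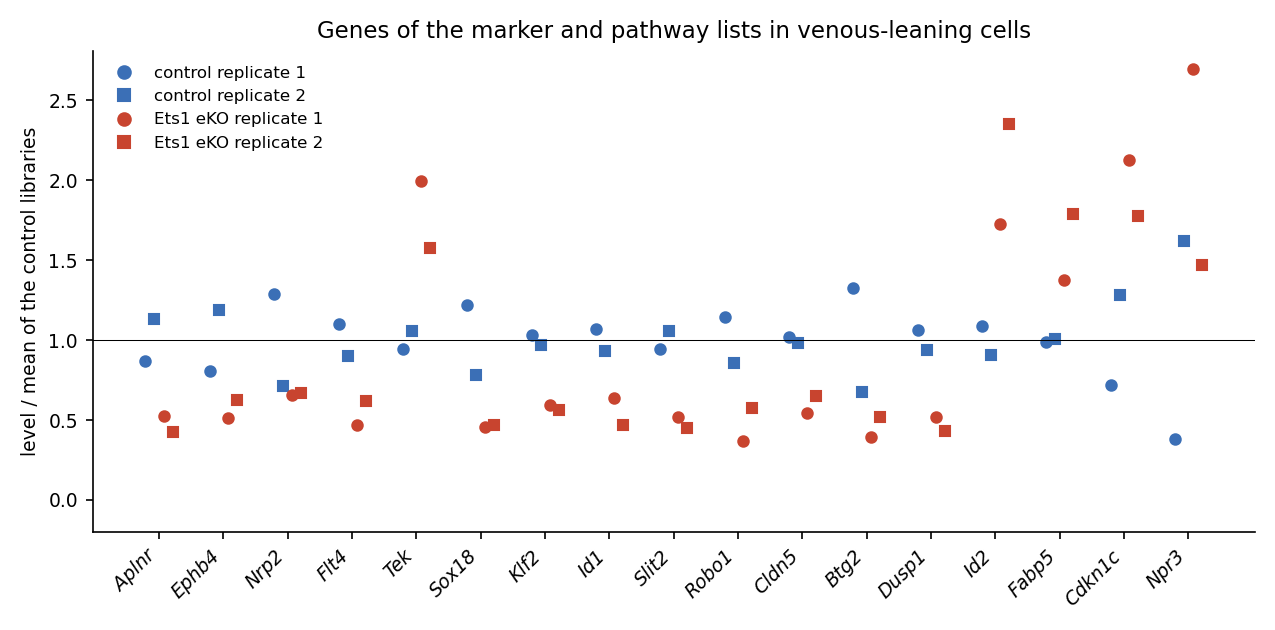
Level of 17 genes of the marker and pathway lists in venous-leaning cells, divided by the mean of the control libraries, with 1 point per library, controls in blue and *Ets1* eKO in red. None of these genes was called; the groups are without overlap for all except *Npr3*.

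Matrix and junction genes differed by member. Of 19 basement membrane and secreted matrix genes tested, *Mgp* was called higher (0.239% of all genes tested were), and the median was 0.02, turning to -0.03 with total count scaling. Without overlap, 3 were higher and 5 lower, where 13.1% and 20.4% of all genes tested were. *Slit2*, a secreted guidance ligand, stood at 274, 306, 151 and 130 CPM, lower in both *Ets1* eKO libraries but not called (log2 fold change -0.98, SE 0.29, adjusted p = 0.270). *Hmcn1* stood at 370, 603, 430 and 247 CPM and *Col18a1* at 683, 593, 727 and 463 CPM, and the groups overlapped for both. The type IV collagen gene *Col4a1* likewise overlapped at 1519, 1244, 1733 and 1182 CPM. Of 11 junction genes tested, 0 were called by either tool and 2 had an unadjusted p under 0.05, with 5 lower without overlap (20.4% of all genes tested were) and a median of -0.33. *Cldn5*, the endothelial claudin gene, stood at 263, 253, 141 and 168 CPM (-0.68). Of 11 guidance genes tested, 0 were called by either tool and 3 had an unadjusted p under 0.05, with a median of -0.19. The Slit receptor gene *Robo1* stood at 116, 87.5, 37.7 and 58.7 CPM (-1.04).

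Of 11 imprinted genes tested, *Dlk1* and *Meg3* were called higher (0.239% of all genes tested were). Without overlap, 6 were higher (13.1% of all genes tested were), and the median was 0.58. Members near 0 in both controls, such as *Dlk1* and *Rian*, could pass the filter on low counts only through the *Ets1* eKO libraries. Their direction was thus tied to their being tested, which enters the count of 6 and the median. The fibroblast list was also higher in both *Ets1* eKO libraries, at 45.7, 92.3, 186 and 404 CPM. With cells carrying other lineages' markers left out, the log2 fold change of *Meg3* was -0.41. *Cdkn1c*, a cell cycle inhibitor gene, stood at 975, 1740, 2885 and 2412 CPM, higher in both *Ets1* eKO libraries (log2 fold change 1.03, SE 0.24, adjusted p = 0.0709). *Rian*, a lncRNA of the *Dlk1* domain, stood at 4.57, 0, 25.2 and 31.4 CPM, and *H19* overlapped at 1366, 2070, 2435 and 1819 CPM. Of 5 fatty acid handling genes tested, 0 were called by either tool and 1 had an unadjusted p under 0.05, with a median of 0.22. That gene was *Fabp5*, at 3104, 3159, 4311 and 5611 CPM (0.72, SE 0.20, adjusted p = 0.216), highest in eKO 2.

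Of 13 immediate early and heat shock genes tested, 0 were called by either tool and 3 had an unadjusted p under 0.05, with a median of -0.38. *Btg2* stood at 532, 272, 158 and 210 CPM (log2 fold change -1.10) and *Dusp1* at 144, 126, 70.4 and 58.7 CPM (-1.03), both lower in *Ets1* eKO. Of 13 mitochondrially encoded genes, all tested, 0 were called by either tool and 1 had an unadjusted p under 0.05, with a median of -0.26, beside 0.17 for 85 nuclear genes of the respiratory chain (0 called by either tool, 1 at an unadjusted p under 0.05). The mitochondrially encoded share of UMIs was 2.88%, 3.03%, 2.40% and 2.27%, higher in both controls. Of 81 cytosolic ribosomal genes tested, 0 were called by either tool and 0 had an unadjusted p under 0.05, with a median of 0.14. Of 6 Ly6 and interferon-induced genes tested, 0 were called by either tool and 1 had an unadjusted p under 0.05, with a median of -0.05. *Ly6a* gave 16, 38.9, 0 and 0 CPM and did not pass the filter on low counts.

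Whether the *Ets1* eKO effect differed between venous-leaning and arterial cells was tested as the difference of the effects, on sums per library and gate with the library as a block, over 7120 genes. The effect was higher in venous-leaning cells for 5 genes, which is 0.0702%, and lower for 1, which is 0.0140%, with 444 at an unadjusted p under 0.05. The latter was *Nts*, which encodes the peptide neurotensin. It stood at 347, 583, 289 and 304 CPM in venous-leaning cells and at 516, 979, 1498 and 1168 CPM in arterial cells. In the arterial gate both *Ets1* eKO libraries were above both controls, and in the venous-leaning gate both were below. The difference was -1.56 on the log2 scale (SE 0.20, adjusted p = 0.000153). After thinning to 4000 UMIs it was -1.41 and not called.

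*Gpc6*, *Ptn* and *Col1a2* were higher in *Ets1* eKO in venous-leaning cells and lower in arterial cells. In the arterial gate *Gpc6* stood at 27.3, 42.2, 4.37 and 3.62 CPM, *Ptn* at 91.2, 70.4, 34.9 and 10.9 CPM, and *Col1a2* at 27.3, 18.1, 6.55 and 0 CPM. The differences on the log2 scale were 7.05 (SE 0.84), 5.31 (SE 0.72) and 6.27 (SE 1.02). *Col1a2* lost the call without eKO 2, at 4.08. The cells with high counts named above also enter these sums. *Nckap5* (1.95, SE 0.37) stood at 205, 376, 301 and 239 CPM in arterial cells, where the groups overlapped. The cation channel gene *Trpm3* (2.68, SE 0.44) stood at 176, 437, 252 and 103 CPM in venous-leaning and at 81.0, 183, 10.9 and 10.9 CPM in arterial cells, lower in *Ets1* eKO in the arterial gate. Both were lost without eKO 1, at 1.61 and 1.94, and *Trpm3* was also lost after thinning to 4000 UMIs, at 4.29. The count of 6 was 25 without control 1, 44 without control 2, 22 without eKO 1, 15 without eKO 2 and 2 with cells carrying other lineages' markers left out.

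**Figure D5:**
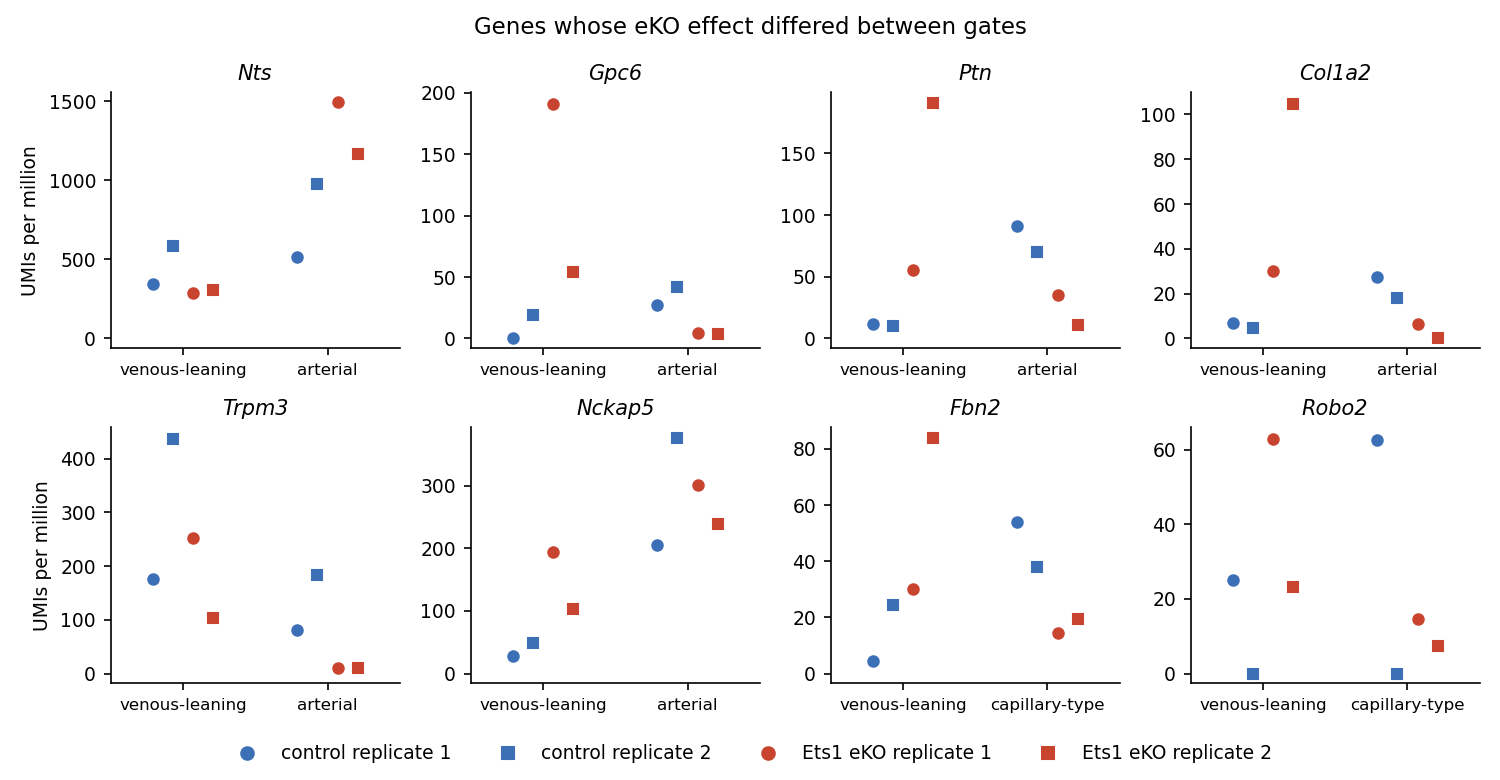
Level (CPM) of 8 genes whose *Ets1* eKO effect differed between gates, in venous-leaning cells and in the gate they were compared with, with 1 point per library, controls in blue and *Ets1* eKO in red. *Nts* is higher in *Ets1* eKO in arterial cells and lower in venous-leaning cells, and *Gpc6*, *Ptn* and *Col1a2* show the opposite.

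Against capillary-type cells, 7090 genes were tested in the same way. The effect was higher in venous-leaning cells for 3 genes, which is 0.0423%, and lower for 6, which is 0.0846%, with 296 at an unadjusted p under 0.05. *Nts* was among the 6 (-1.30, SE 0.23, adjusted p = 0.00821), at 132, 301, 253 and 385 CPM in capillary-type cells. *Ptn* (3.05, SE 0.65), the fibrillin gene *Fbn2* (3.90, SE 0.64) and the Slit receptor gene *Robo2* (3.21, SE 0.63) were the 3 with the higher effect. *Fbn2* stood at 4.57, 24.3, 30.2 and 83.8 CPM in venous-leaning cells and at 54.0, 38.1, 14.6 and 19.4 CPM in capillary-type cells. It thus went opposite ways in the gates, without overlap in either. *Robo2* was at 0 in control 2 in both gates. The globin genes *Hbb-bs* and *Hbb-bt* were among the 6 through capillary-type cells of eKO 2, where they stood at 6408 and 3227 CPM. Without that library their differences were -0.74 and -0.63 and were not called.

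*Nts* was no longer called without control 1 (-1.05), control 2 (-1.51) or eKO 2 (-0.95). *Fbn2* lost the call without control 1 (2.42) and eKO 2 (3.21), and *Ptn* turned to -3.97 without control 1 and lost the call without eKO 2 (2.79). After thinning to 4000 UMIs the calls of *Fbn2* (0.73), *Ptn* (1.07) and *Robo2* (2.94) were lost as well. *Robo2* was called without eKO 2 but not without control 1 (1.87), control 2 (3.21) or eKO 1 (2.90). The count of 9 was 18 without control 1, 5 without control 2, 19 without eKO 1 and 8 without eKO 2.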

How the data were processed

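Cells of E14.5 ventricles were sequenced as 4 libraries. The authors deposited UMI counts per gene and barcode, made with Cell Ranger 7.1.0 and, per their processing notes, analysed with Seurat 4.3.0. Barcodes were gated on these deposited counts by the rule given in the report, and counts of the gated cells were summed per library. Members and lists were chosen with earlier results of these data known. Of 32285 gene IDs, 32235 matched the GENCODE annotation on GRCm38.

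Groups were compared over libraries with edgeR 4.0.16 (quasi-likelihood test, TMM scaling, filterByExpr; R 4.3.3, limma 3.58.1) and Benjamini-Hochberg adjustment, called at 0.05. That filter on low counts also keeps a gene that reaches its level in the libraries of either group alone. The 15 genes used by the rule were kept for library sizes and not tested. Differences of effects between gates used a model with library, gate and gate by condition. Each SE of a log2 value was derived from the test, as its absolute value divided by the square root of the F statistic. The share was compared by an exact permutation test (scipy 1.17.1), with exact binomial intervals. Counting intervals and floors of 3 counts cover counting error only. The tests were tested on simulated data.

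The rule for named genes took *Ets1*, members of the lists with the largest change, the best known or past the threshold, and the 10 called genes with the largest fold change in each direction with a mean of at least 20 CPM and no overlap between groups. Alternatives were scaling by total counts, testing without the filter on low counts, leaving out each library, gating after thinning to 4000 or 2000 UMIs (seed 0; cells with fewer UMIs left out), other thresholds for *Nr2f2* and *Dab2*, the study's limits on genes and on mitochondrial, ribosomal and hemoglobin UMIs (without its steps for ambient RNA, exon ratio, read number and doublets), a denominator with cycling cells, DESeq2 1.42.0 and the replicate number as a block. After seeing the data, cells with leukocyte markers, cells with *Xist* and Y-linked UMIs, and a *Fabp4* threshold of 0.2% were added. No doublet caller was run: cells with 3 or more UMIs of fibroblast, mural, epicardial or leukocyte markers were left out as an alternative. Tables used Python 3.11.15, numpy 2.4.6 and pandas 2.3.3, and figures matplotlib 3.10.9.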

Additional observations from a re-analysis of the deposited data

Results flagged for a closer look

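The *Ets1* eKO effect was compared between gates by testing the difference of the effects itself, and the genes called there are listed as log2 differences, venous-leaning minus the other gate. Against arterial cells these were *Gpc6* (7.05), *Col1a2* (6.27), *Ptn* (5.31), *Trpm3* (2.68), *Nckap5* (1.95) and *Nts* (-1.56). *Nts* and *Trpm3* were also called with cells carrying other lineages' markers left out, but not after thinning to 4000 UMIs (-1.41 and 4.29).

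Against capillary-type cells the called genes were *Fbn2* (3.90), *Robo2* (3.21), *Ptn* (3.05), *Nts* (-1.30), *Tmem108* (-2.43), *Hist1h1b* (-3.80), *Hbb-bt* (-5.97), *Hbb-bs* (-6.47) and *Hs3st4* (-6.87). *Tmem108* stood at 100, 535, 226 and 199 CPM in venous-leaning cells and at 12.3, 9.52, 49.5 and 69.1 CPM in capillary-type cells. *Hist1h1b*, a replication-dependent histone gene, stood at 9.14, 126, 7.55 and 44.0 CPM in venous-leaning cells, highest in control 2, and at 6.13, 3.17, 17.5 and 76.5 CPM in capillary-type cells. *Hs3st4* was at 0 in both controls of the capillary-type gate, so its fitted value depends on the prior count. Without control 2 the calls of *Tmem108*, *Hist1h1b*, *Hbb-bt* and *Hs3st4* were lost, at -1.22, -1.44, -5.43 and -6.40. Without eKO 2 they were lost at -1.99, -3.99, -0.63 and -5.75, and that of *Hbb-bs* at -0.74. After thinning to 4000 UMIs the difference of *Fbn2* was 0.73, that of *Hs3st4* was -0.49 and that of *Tmem108* turned to 0.17. None of them was called there, and *Hist1h1b* was not called either.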

How the results depend on the processing

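For *Ets1* eKO against control, 16 genes were called, and 16 with total count scaling, 18 with the study's limits on genes and on mitochondrial, ribosomal and hemoglobin UMIs, 11 with at least 2 UMIs of *Nr2f2* alone, 54 without a filter on low counts, 25 with at least 3 UMIs of *Nr2f2* and *Dab2*, 8 with both genes required, 4 after thinning to 4000 UMIs, 2 with cells carrying other lineages' markers left out and 6 by DESeq2. Leaving out 1 library gave 4 to 54. With the replicate number as a block, which pairs libraries by number alone, the count was 31. Of the alternatives chosen after seeing the data, leaving out the cell with leukocyte markers gave 13, leaving out cells with *Xist* and Y-linked UMIs 14 and a *Fabp4* threshold of 0.2% gave 24. With cells carrying other lineages' markers left out (28 of 39, 15 of 21, 22 of 41 and 47 of 67 members kept), *Meg3* turned to -0.41.

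Against capillary-type cells, 9 genes became 20 without a filter, 5 with cells carrying other lineages' markers left out and 5 to 19 without 1 library. *Ptn* ran from -3.97 to 3.58 without 1 library, turning without control 1, and *Tmem108* turned to 0.17 after thinning. Against arterial cells, 6 became 31 with total count scaling, 47 without a filter, 18 after thinning, 2 with such cells left out and 15 to 44 without 1 library.

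The difference in share of 1.38 points turned to -0.896 with at least 3 UMIs, to -0.535 with *Nr2f2* alone, to -4.54 with such cells left out and, in an alternative added after seeing the data, to -1.13 with both genes required. It was 3.16 after thinning to 4000 UMIs, 0.954 after thinning to 2000 UMIs and 1.96 with cycling cells in the denominator, the last 2 without overlap. Leaving out 1 library gave -0.634 to 3.40, and pairing by replicate number as a block gave 1.38. Some of these alternatives also hold fewer cells or libraries, and the cause of the changes was not tested. Where 1 library was left out of a group, the lone library was assumed to vary like the other group. Summed UMIs were lowest in control 2, where 21 members gave 205772, and the part of depth in the results was not tested.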
